A study of Mus musculus with 6 samples.

Results

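The transcripts described here encode 8 transcription factors of the enteroendocrine lineage: Neurog3, Neurod1, Pax4, Pax6, Insm1, Nkx2-2, Isl1 and Rfx6. They were taken by gene symbol from a count table of 23565 mouse genes, and all 8 passed the filter on low counts that left 12439 genes for testing. The table holds RNA sequencing counts of 6 libraries of sorted intestinal crypt cells. The Hopx-CreER group is 3 libraries of cells sorted as tdTomato+, taken from mice of the genotype HopXCreER::Rosa26LSL-tdTomato, and the Lgr5-CreER group is 3 libraries of cells positive for both eGFP and tdTomato, from mice of the genotype Lgr5eGFP-IRES-CreER::Rosa26LSL-tdTomato. Both groups therefore carried the same Cre-dependent red reporter, all mice had received 1 mg of tamoxifen 16 hours before the crypts were collected, and the series gives 3 mice per genotype; their age is not stated. Hopx and Lgr5 are markers used for crypt stem cell populations, and here each drives the tamoxifen-dependent Cre recombinase (CreER), so that the reporter marks cells in which that Cre had acted, together with any progeny. The gate on eGFP was applied to Lgr5-CreER cells alone, and genotype and gate cannot be told apart. The columns of Lgr5-CreER libraries 2 and 3 carry the same number, and whether they come from 1 mouse is not stated. Counts of called genes were recomputed with both summed as 1 library for the 8 factors and for most lists below. The lists so treated are further regulators, Notch and early secretory genes, partners, relatives, granule genes, and hormone and serotonin genes. Summed values stand beside those counts that they change by over 1.5 times. Counts of the cell type marker lists were not recomputed in this way.

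Enteroendocrine cells are the scattered hormone-secreting cells of the gut epithelium. They arise in the crypt from secretory progenitors that escape Notch signalling and turn on Atoh1, and a short pulse of the basic helix-loop-helix factor Neurog3 commits a progenitor to the endocrine fate. Neurog3 turns on a set of further factors, among them Neurod1, Insm1, Pax4 and Nkx2-2, and is then silenced, while Pax6, Isl1, Rfx6 and others act in maturing cells and in the choice and upkeep of hormone genes.

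Neurog3 is the entry point of this cascade, and its products and other helix-loop-helix factors bind E-box sequences in target genes, while Hes repressors bind so-called N-boxes. The 250 bases upstream of the RefSeq transcription start (GRCm38.p6) were therefore searched on both strands for the E-boxes CAGATG and CAGCTG and for the N-box CACNAG. A window could be matched for 6 of the 8 genes, with 2 windows for Pax6. Shown are 4 windows that hold a match, those of Neurog3 itself, at chr10:62132840-62133089 on the plus strand, and 3 of the genes whose RNA rose: Nkx2-2 at chr2:147186403-147186652 on the minus strand, Isl1 at chr13:116309689-116309938 on the minus strand, and Rfx6 at chr10:51685268-51685517 on the plus strand. Each is written 5′ to 3′ along the gene's strand and ends at the base before the RefSeq start site, with the matches in capitals. For Nkx2-2, Rfx6 and the second window of Pax6, the window lies inside the gene span given below, which comes from another annotation (GENCODE).
Neurog3: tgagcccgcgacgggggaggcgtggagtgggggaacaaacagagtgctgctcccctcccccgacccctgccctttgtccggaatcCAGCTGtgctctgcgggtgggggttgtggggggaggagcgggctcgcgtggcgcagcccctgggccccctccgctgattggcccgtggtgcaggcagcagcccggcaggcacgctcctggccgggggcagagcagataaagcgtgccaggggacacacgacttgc
Nkx2-2: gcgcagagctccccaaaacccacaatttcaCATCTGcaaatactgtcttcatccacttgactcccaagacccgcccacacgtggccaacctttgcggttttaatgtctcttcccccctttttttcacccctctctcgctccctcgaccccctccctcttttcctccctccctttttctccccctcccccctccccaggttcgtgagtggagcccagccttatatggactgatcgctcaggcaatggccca
Isl1: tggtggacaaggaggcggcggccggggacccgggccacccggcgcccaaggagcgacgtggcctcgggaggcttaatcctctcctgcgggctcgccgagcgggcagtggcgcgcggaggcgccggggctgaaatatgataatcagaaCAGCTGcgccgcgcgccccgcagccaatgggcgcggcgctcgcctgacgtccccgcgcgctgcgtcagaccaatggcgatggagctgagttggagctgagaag
Rfx6: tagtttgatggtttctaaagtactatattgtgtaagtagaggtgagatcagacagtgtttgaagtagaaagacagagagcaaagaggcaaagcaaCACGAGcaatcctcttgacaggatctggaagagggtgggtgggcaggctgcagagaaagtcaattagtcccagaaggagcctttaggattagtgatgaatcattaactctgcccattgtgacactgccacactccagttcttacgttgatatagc

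The E-box CAGCTG began 165 bases before the start of Neurog3 and 103 bases before that of Isl1, and the E-box CAGATG, read as its complement, began 220 bases before the start of Nkx2-2. The N-box match of Rfx6 began 155 bases before its start. Of the windows not shown, that of Neurod1 and the first of Pax6 held none of the 3 motifs, and the second of Pax6 held an N-box 136 bases before its start. Of 32841 RefSeq windows of the same length, 14.4% held CAGATG, 13.0% held CAGCTG and 36.7% held CACNAG, against 1, 2 and 2 of the 7 windows of the factors, so matches of these letters are common and describe the window alone.

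The RNA of Neurog3 did not pass the test between the groups, while that of factors acting after it was higher in Hopx-CreER cells. Of the 8 factors, 5 rose in Hopx-CreER cells (Neurod1, Pax6, Nkx2-2, Isl1 and Rfx6), with log2 fold changes from 1.79 to 2.98, and 0 fell. Insm1, Pax4 and Neurog3 did not pass, at log2 fold changes of 1.23, 1.13 and 0.12. A call here is an adjusted p under 0.05 by edgeR's quasi-likelihood test over all 12439 genes, of which 9.45% were called higher and 3.30% lower in Hopx-CreER cells. The median log2 fold change was 2.02 over the 8 factors and -0.033 over all tested genes. Levels of a gene below are in CPM, counts relative to the library total after TMM scaling. Fewer enteroendocrine cells in a sort and less of these RNAs per cell cannot be told apart in bulk libraries.

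**Figure D1:**
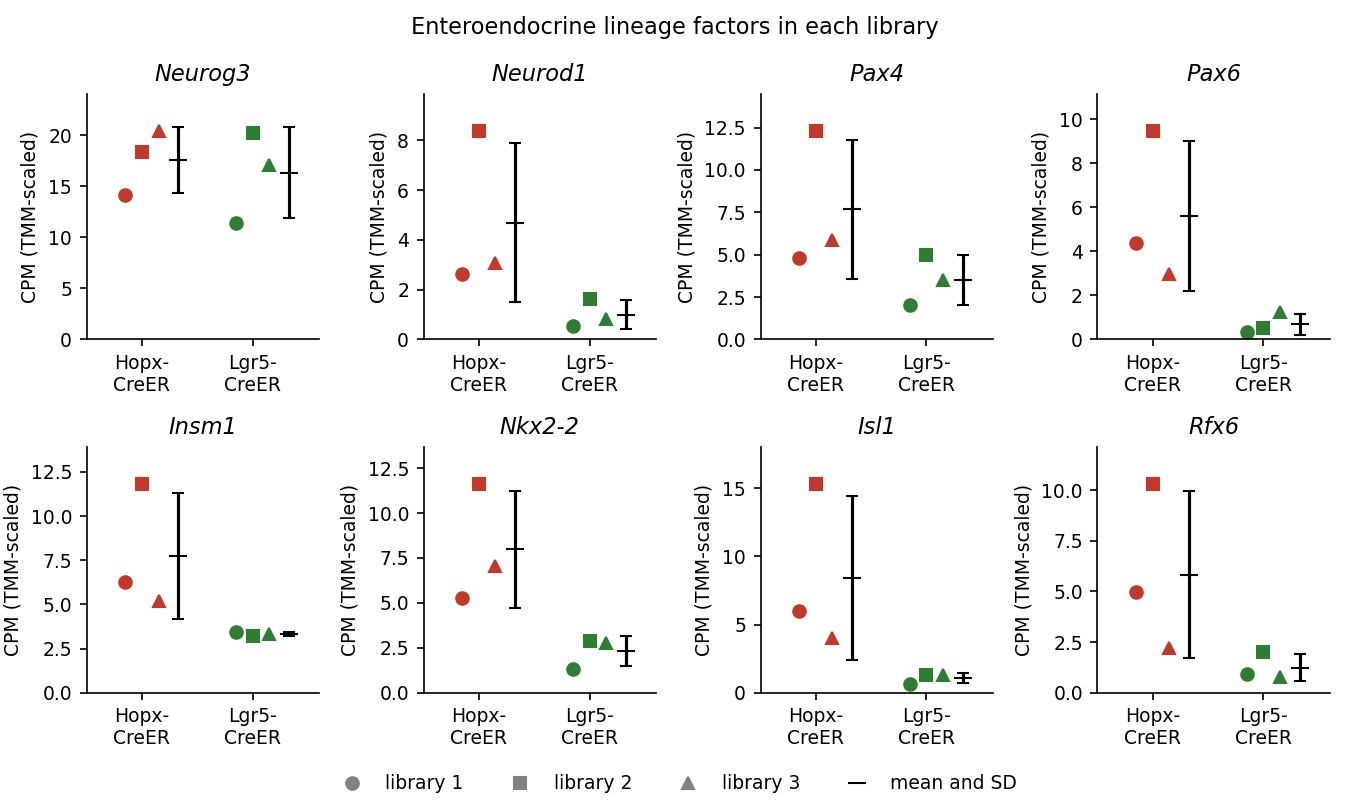
Level of each of the 8 factors in CPM (linear axis from 0) in the 3 Hopx-CreER (red) and 3 Lgr5-CreER (green) libraries, with the mean and SD beside the points. Neurog3 overlaps between the groups, at 14.1 to 20.4 against 11.4 to 20.2 CPM, while Hopx-CreER library 2 lies highest in the 7 other panels.

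Neurog3 (ENSMUSG00000044312.4) lies on the plus strand of chromosome 10, at 62133090 to 62134763 (GRCm38, as for all genes here). It stood at 14.1, 18.3 and 20.4 CPM in Hopx-CreER libraries 1, 2 and 3 and at 11.4, 20.2 and 17.1 CPM in Lgr5-CreER libraries 1, 2 and 3. The groups overlapped, and the lowest value was that of Lgr5-CreER library 1. The means were 17.6 ± 3.22 and 16.3 ± 4.45 CPM (SD, n = 3), and the log2 fold change of Hopx-CreER over Lgr5-CreER was 0.12 ± 0.26 (SE; edgeR adjusted p 0.805). Its 95% interval ran from -0.48 to 0.71, that is from 0.719-fold to 1.63-fold, which leaves out changes of the size estimated for the 5 factors that rose. The fitted sign was not stable: it was -0.01 with library totals alone as scaling and -0.16 with offsets for GC content. The gene overlaps Fam241b on the other strand, which had 1375 counts in Hopx-CreER and 1615 in Lgr5-CreER libraries (log2 fold change -0.02, edgeR adjusted p 0.943), and no source used here states whether the counting used strand.

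Neurod1, a helix-loop-helix factor that Neurog3 turns on directly and that helps endocrine cells leave the cell cycle, was higher in Hopx-CreER cells. It lies on the minus strand of chromosome 2 (79452521 to 79456751; ENSMUSG00000034701.9). Its level was 2.64, 8.37 and 3.06 CPM in Hopx-CreER libraries 1 to 3, and 0.535, 1.64 and 0.826 CPM in those of Lgr5-CreER, the latter from 8, 19 and 12 counts. The groups did not overlap, and Hopx-CreER library 2 was far above the other libraries. The log2 fold change was 2.24 ± 0.59 (SE), or 4.74-fold (edgeR adjusted p 0.0377). The call ended without Hopx-CreER library 2 (log2 fold change 1.52, edgeR adjusted p 0.132) and without Lgr5-CreER library 1, 2 or 3 (0.126, 0.0554 and 0.138), within a range over all alternatives of 0.00446 to 0.138. Cerkl overlaps Neurod1 on the same strand and had 24 counts in Hopx-CreER and 3 in Lgr5-CreER libraries; how reads were divided between the genes was not tested.

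Pax4, a paired-homeodomain factor of early endocrine precursors, lay between Neurog3 and the factors that rose. It lies on the minus strand of chromosome 6 (28442334 to 28449353; ENSMUSG00000029706.15). It stood at 4.82, 12.3 and 5.84 CPM in Hopx-CreER libraries 1 to 3, and at 2.01, 5.01 and 3.51 CPM in those of Lgr5-CreER. Lgr5-CreER library 2 was above Hopx-CreER library 1, so the groups overlapped. The log2 fold change was 1.13 ± 0.46 (SE; 95% interval 0.10 to 2.17), with an unadjusted p of 0.0353 and an edgeR adjusted p of 0.147.

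Insm1, a zinc-finger repressor that works with Neurod1 and Neurog3 in endocrine differentiation, separated the groups but did not pass. Its position is the plus strand of chromosome 2 (146221921 to 146225020; ENSMUSG00000068154.5). The Hopx-CreER libraries held 6.25, 11.8 and 5.19 CPM, and the Lgr5-CreER libraries 3.41, 3.20 and 3.30 CPM. Its Lgr5-CreER values were the most even of the 8 factors, with an SD of 3.3% of the mean. The log2 fold change was 1.23 ± 0.37 (SE; edgeR adjusted p 0.0577). It passed without Hopx-CreER library 3 (log2 fold change 1.43, edgeR adjusted p 0.0169) and by DESeq2 (1.22, adjusted p 0.0185), in a range over alternatives of 0.0169 to 0.181.

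Nkx2-2, a homeodomain factor needed for the balance of hormone-producing cell types, rose in Hopx-CreER cells. It lies on the minus strand of chromosome 2 (147177546 to 147194243; ENSMUSG00000027434.11). Its level was 5.27, 11.6 and 7.05 CPM in the Hopx-CreER group against 1.34, 2.85 and 2.75 CPM in the Lgr5-CreER group. The lowest Hopx-CreER library was above all Lgr5-CreER libraries. The log2 fold change was 1.79 ± 0.42 (SE), or 3.45-fold (edgeR adjusted p 0.0243). This call ended without Hopx-CreER library 2 (edgeR adjusted p 0.0838) and without Lgr5-CreER library 1, 2 or 3 (0.0799, 0.0673 and 0.0694), in a range over alternatives of 0.00102 to 0.0838.

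Isl1, a LIM-homeodomain factor of maturing hormone cells, and Pax6, a paired-homeodomain factor that binds hormone gene promoters, had the largest fold changes of the 8. Isl1 (minus strand of chromosome 13, 116298281 to 116309689; ENSMUSG00000042258.13) stood at 6.03, 15.3 and 3.99 CPM in Hopx-CreER libraries 1 to 3, and at 0.669, 1.30 and 1.31 CPM in those of Lgr5-CreER, the latter from 10, 15 and 19 counts. The groups were well apart although Hopx-CreER library 2 was far above libraries 1 and 3. Its log2 fold change was 2.95 ± 0.56 (SE), or 7.73-fold (edgeR adjusted p 0.0096), and Isl1 was called in 6 of 6 fits that left out 1 library. Pax6 (plus strand of chromosome 2, 105668900 to 105697364; ENSMUSG00000027168.21) stood at 4.37, 9.47 and 2.97 CPM in Hopx-CreER libraries 1 to 3, and at 0.335, 0.518 and 1.24 CPM in those of Lgr5-CreER, the latter from 5, 6 and 18 counts. Here too the groups did not overlap. Its log2 fold change was 2.98 ± 0.61 (SE), or 7.89-fold (edgeR adjusted p 0.0132). The Pax6 call ended without Lgr5-CreER library 1 (adjusted p in edgeR 0.0522) or 2 (0.066), the upper end of a range over alternatives that began at 4.71e-05.

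Rfx6, a winged-helix factor that acts in endocrine progenitors and in the upkeep of peptide hormone cells, also rose. It lies on the plus strand of chromosome 10 (51677756 to 51730432; ENSMUSG00000019900.19). It stood at 4.97, 10.3 and 2.23 CPM in Hopx-CreER libraries 1 to 3, and at 0.937, 1.99 and 0.757 CPM in those of Lgr5-CreER, the latter from 14, 23 and 11 counts. Hopx-CreER library 3 was only just above Lgr5-CreER library 2. The log2 fold change was 2.27 ± 0.61 (SE), or 4.81-fold (edgeR adjusted p 0.0394). Rfx6 was called in 1 of 6 fits that left out 1 library, the fit without Hopx-CreER library 3. The adjusted p was 0.0608, 0.134, 0.13, 0.0602 and 0.146 without Hopx-CreER library 1 or 2 and Lgr5-CreER library 1, 2 or 3, and its range over alternatives was 0.003 to 0.146.

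**Figure D2:**
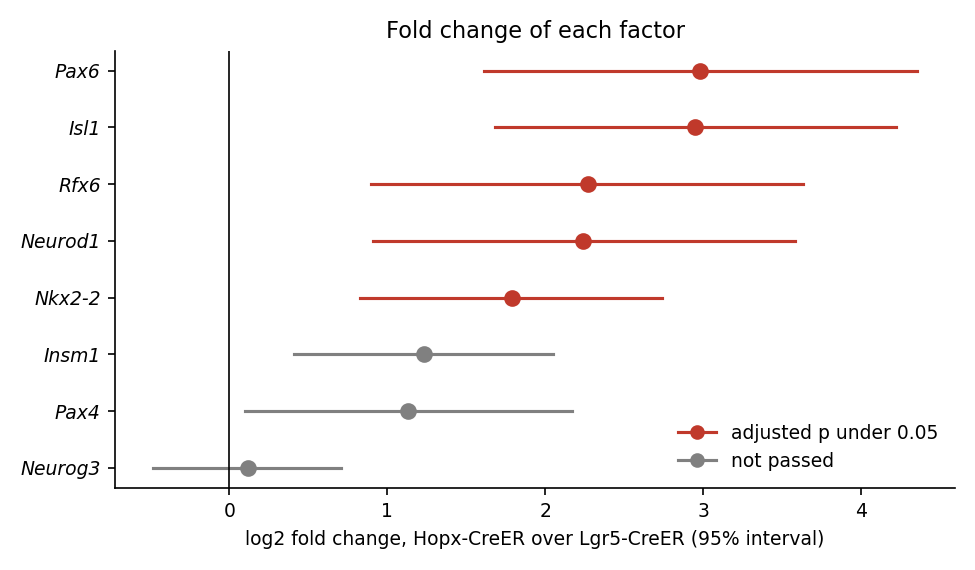
Fold change of each factor on the log2 scale (Hopx-CreER relative to Lgr5-CreER) with its 95% interval; red points passed an adjusted p under 0.05 and grey points did not. Neurog3 sits at 0.12, Pax4 and Insm1 at 1.13 and 1.23, and the 5 factors called higher between 1.79 and 2.98.

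All 3 Hopx-CreER libraries lay above all 3 Lgr5-CreER libraries for 6 of the 8 factors, where 18.8% of all tested genes did so. The count of factors called higher was 5 with all libraries, 4, 2 and 6 without Hopx-CreER library 1, 2 or 3, and 1, 1 and 2 without Lgr5-CreER library 1, 2 or 3. With the columns of Lgr5-CreER libraries 2 and 3 summed it was 2, Pax6 (log2 fold change 3.08, edgeR adjusted p 0.041) and Isl1 (3.05, 0.0418). Calls over all genes moved as well, from 1586 to 1435, 1127 and 1868 without Hopx-CreER library 1, 2 or 3. They numbered 944, 723 and 882 without Lgr5-CreER library 1, 2 or 3, and 790 with the columns summed.

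The libraries of both groups were uneven in most of these factors. Hopx-CreER library 2 held the highest value of the group for 7 of the 8 factors, and library 3 for the remaining 1, Neurog3. The 7 factors other than Neurog3 summed to 34.4, 79.2 and 30.3 CPM in Hopx-CreER libraries 1, 2 and 3, and to 9.24, 16.5 and 13.7 CPM in Lgr5-CreER libraries 1, 2 and 3. Lgr5-CreER library 1 held the lowest value of its group for 6 of the 8. The SD was 40.8% to 71.5% of the Hopx-CreER mean for the 7 factors and 18.3% for Neurog3. In the Lgr5-CreER group it was 3.3% (Insm1) to 68.5% (Pax6) of the mean for the 7 factors and 27.3% for Neurog3.

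A ratio of Neurog3 to a later factor within a library leaves out most of the scaling between libraries. The log2 ratio of Neurog3 to Neurod1, on the log2(CPM + 0.5) scale, was 2.22, 1.09 and 2.55 in the Hopx-CreER libraries and 3.53, 3.27 and 3.73 in the Lgr5-CreER libraries. The groups did not overlap, and the difference of the means was -1.56 (1.95 ± 0.77 against 3.51 ± 0.23, SD, n = 3). Its exact permutation p, two-sided, was 0.1, the smallest that 3 against 3 libraries allow. Taken against Neurog3 in the same way, 6 of the 7 other factors stood higher in all 3 Hopx-CreER libraries than in any Lgr5-CreER library, with mean differences from 0.86 for Pax4 to 2.18 for Isl1. Over all other tested genes, 7.42% did so on this ratio to Neurog3. The ratio of Insm1 to Neurog3 overlapped, at -1.11, -0.61 and -1.88 against -1.61, -2.49 and -2.21.

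To compare levels between factors, CPM was divided by the length of each gene's longest annotated transcript in kilobases. On this per-length scale Neurog3 was the most abundant of the 8 in both groups, at 11.4 ± 2.09 CPM per kb in Hopx-CreER cells and 10.6 ± 2.89 CPM per kb in Lgr5-CreER cells (SD, n = 3). Pax4 came second in both, at 5.60 ± 2.98 and 2.56 ± 1.10 CPM per kb, below Neurog3 in every library. In Hopx-CreER cells Nkx2-2 (3.76), Isl1 (3.35), Insm1 (2.50), Neurod1 (1.72), Rfx6 (1.69) and Pax6 (1.27 CPM per kb) followed, and each neighbouring pair from Pax4 down overlapped between libraries. In Lgr5-CreER cells the order after Pax4 was Nkx2-2 (1.09), Insm1 (1.07), Isl1 (0.434), Neurod1 (0.367), Rfx6 (0.354) and Pax6 (0.157 CPM per kb). Pax4 was above Nkx2-2, and Insm1 above Isl1, without overlap, while the other neighbouring pairs after Pax4 overlapped. With the merged length of all exons in place of the longest transcript, Neurog3 and Pax4 kept their places. Isl1 then came behind Insm1 in Hopx-CreER cells too, and moved from place 5 to place 7 in Lgr5-CreER cells.

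Neurog3 made up 65%, 62.6% and 64.0% of the summed CPM per kb of the 8 factors in the Lgr5-CreER libraries and 39.9%, 26.8% and 49.9% in the Hopx-CreER libraries. Isl1 went the other way, from 2.33%, 2.46% and 2.99% to 10.4%, 13.7% and 5.97%. The share of Pax4 was 12.8%, 17.4% and 14.7% against 15.3%, 20.3% and 16.1%, so that the groups overlapped.

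**Figure D3:**
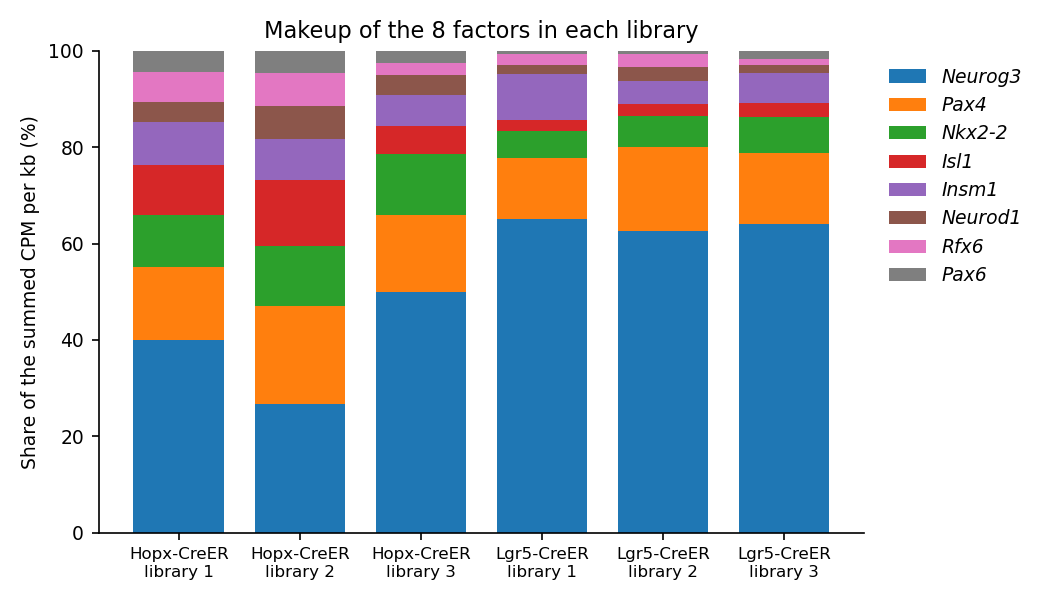
Share of each factor in the summed CPM per kb of the 8 factors, by library (stacked bars, in percent). Neurog3 takes 62.6% to 65% in the Lgr5-CreER libraries and 26.8% to 49.9% in the Hopx-CreER libraries.

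Further regulators of the enteroendocrine or islet lineage were called higher more often than lower, and most did not pass. Of 37 listed genes, values for 33 were used and 20 were tested, with 7 called higher, 1 called lower and 12 not passing (median log2 fold change 0.39). Over all tested genes, 9.45% were called higher and 3.30% lower. Lmx1a, a LIM-homeodomain factor of serotonin-producing enterochromaffin cells, rose from 2.08 ± 0.583 to 31.7 ± 9.04 CPM (SD, n = 3; log2 fold change 3.93 ± 0.33, SE; edgeR adjusted p 0.000418). Its values were 21.7, 39.3 and 34.0 CPM against 2.21, 2.59 and 1.45 CPM. Fev, an ETS factor of serotonin-producing cells, rose by 3.37 ± 0.37 on the log2 scale, from 1.74, 1.73 and 1.93 CPM to 11.2, 26.8 and 18 CPM (edgeR adjusted p 0.000949). Hmgn3, a nucleosome-binding protein of endocrine cells, rose by 2.49 ± 0.48 (edgeR adjusted p 0.0101), a call that ended without Lgr5-CreER library 3 (0.0537; range over alternatives 2.82e-05 to 0.0537).

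Hhex and Peg3 were also among the higher genes and are named only because of their values. Peg3 had 13, 12 and 10 counts in the Hopx-CreER libraries and 0, 0 and 2 in those of Lgr5-CreER. Sox4, an SRY-box factor of early endocrine progenitors and also named after its values were seen, was the single lower gene. It stood at 63.0, 55.1 and 36.5 CPM in Hopx-CreER libraries 1 to 3, and 106, 110 and 90.1 CPM in those of Lgr5-CreER (log2 fold change -0.99 ± 0.20, SE; edgeR adjusted p 0.0115). Hhex was called in 1 of 6 fits that left out 1 library, Peg3 in 4 and Sox4 in 5. The count of higher genes in this list was 4, 4, 3 and 3 without Hopx-CreER library 1 or 2 and Lgr5-CreER library 1 or 2, and 4 with Lgr5-CreER libraries 2 and 3 summed.

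Upstream of Neurog3, Notch receptors and Lfng were lower in Hopx-CreER cells, while Atoh1 and Hes1 did not pass. Of 24 Notch and early secretory genes, 18 were tested, with 1 called higher, 4 called lower and 13 not passing (median log2 fold change -0.18). In the whole set of tested genes, 9.45% were called higher and 3.30% lower. Notch2 stood at 13.8, 11.7 and 12.5 CPM in Hopx-CreER libraries 1 to 3, and at 43.4, 34.0 and 23.9 CPM in those of Lgr5-CreER (log2 fold change -1.41 ± 0.24, SE; edgeR adjusted p 0.00585). Notch1 had a log2 fold change of -1.23 ± 0.27 (edgeR adjusted p 0.0167), and its call ended without Hopx-CreER library 1 (0.0539, in a range of 0.000104 to 0.0539). Lfng, a glycosyltransferase that modifies Notch receptors, fell by 0.85 ± 0.16 on the log2 scale (edgeR adjusted p 0.0096).

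Atoh1, the helix-loop-helix factor that opens the secretory fate, stood at 67.3, 78.0 and 45.9 CPM against 25.4, 48.6 and 54.3 CPM, so that the groups overlapped (log2 fold change 0.58 ± 0.29, SE; edgeR adjusted p 0.231). Hes1, the Notch effector that represses Atoh1 and Neurog3, had a log2 fold change of -0.19 ± 0.11 (edgeR adjusted p 0.307). The higher gene, Gfi1b, is also a tuft cell gene (log2 fold change 2.61 ± 0.59, edgeR adjusted p 0.02), and the fourth lower gene was Foxa3 (-0.46 ± 0.12, edgeR adjusted p 0.0379). Atoh1, Hes1, Gfi1b and Foxa3 were named after their values were seen, and the last pair were each called in 2 of 6 fits that left out 1 library. The count called in this list was 3 without Hopx-CreER library 1, 3 without Lgr5-CreER library 1, 2 or 3, and 3 with Lgr5-CreER libraries 2 and 3 summed.

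Partners of the 8 proteins mostly did not pass, as was true of all tested genes, of which 9.45% were called higher and 3.30% lower. Among 29 tested dimer partners, inhibitors and corepressors, 4 passed as higher and 1 as lower, while 24 missed the threshold (median log2 fold change -0.05). The E proteins with which Neurog3 and Neurod1 pair include Tcf3, named after its values were seen, at 223 ± 23.6 against 259 ± 26.5 CPM (SD, n = 3; edgeR adjusted p 0.294). Id1 and Id3, which lack a DNA-binding region and hold E proteins inactive, had log2 fold changes of 1.34 ± 0.25 and 1.55 ± 0.26 (SE), with edgeR adjusted p of 0.00825 and 0.00561, both higher in Hopx-CreER cells. Id3 was 209, 179 and 390 CPM against 88.7, 80.8 and 95.5 CPM, highest in Hopx-CreER library 3. Tle6, of the Groucho family of corepressors, rose by 2.39 ± 0.37 (edgeR adjusted p 0.00382), from 1.41, 2.94 and 2.96 CPM to 9.49, 15.2 and 13.5 CPM. The other genes called, named after their values were seen, were Tle2 (higher) and Tle3 (lower), each of which lost its call in 4 or more of the 6 fits that left out 1 library. The count called was 3 without Hopx-CreER library 2, 3 without Lgr5-CreER library 1 or 2, and 3 with Lgr5-CreER libraries 2 and 3 summed.

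Few relatives of the 8 factors were measurable. Of 37 listed, of which Rfxank and Rfxap are partners of Rfx5 rather than members of these protein families, values for 18 were used, 4 of these had no count in any library, and 9 were tested, with 2 higher, 0 lower and 7 not passed. Without that pair, 7 were tested, with 2 higher and 5 not passed. Among all tested genes, 9.45% were called higher and 3.30% lower. With Lgr5-CreER libraries 2 and 3 summed, 1 of the list was called. Lhx1, a LIM-homeodomain gene, stood at 2.64, 3.13 and 2.23 CPM in Hopx-CreER libraries 1 to 3 and, from 3, 3 and 7 counts, at 0.201, 0.259 and 0.482 CPM in those of Lgr5-CreER (log2 fold change 3.04 ± 0.48, SE; edgeR adjusted p 0.00448). Pax8, a paired-box gene, had a log2 fold change of 1.42 ± 0.41 at the threshold (edgeR adjusted p 0.0499), and was called in 1 of 6 fits that left out 1 library. Rfxank, a partner of Rfx5 at MHC class II promoters, did not pass (0.60 ± 0.19, edgeR adjusted p 0.0713). Neurod2, named after its values were seen, was not tested and had 24 counts in Hopx-CreER and 16 in Lgr5-CreER libraries.

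**Figure D4:**
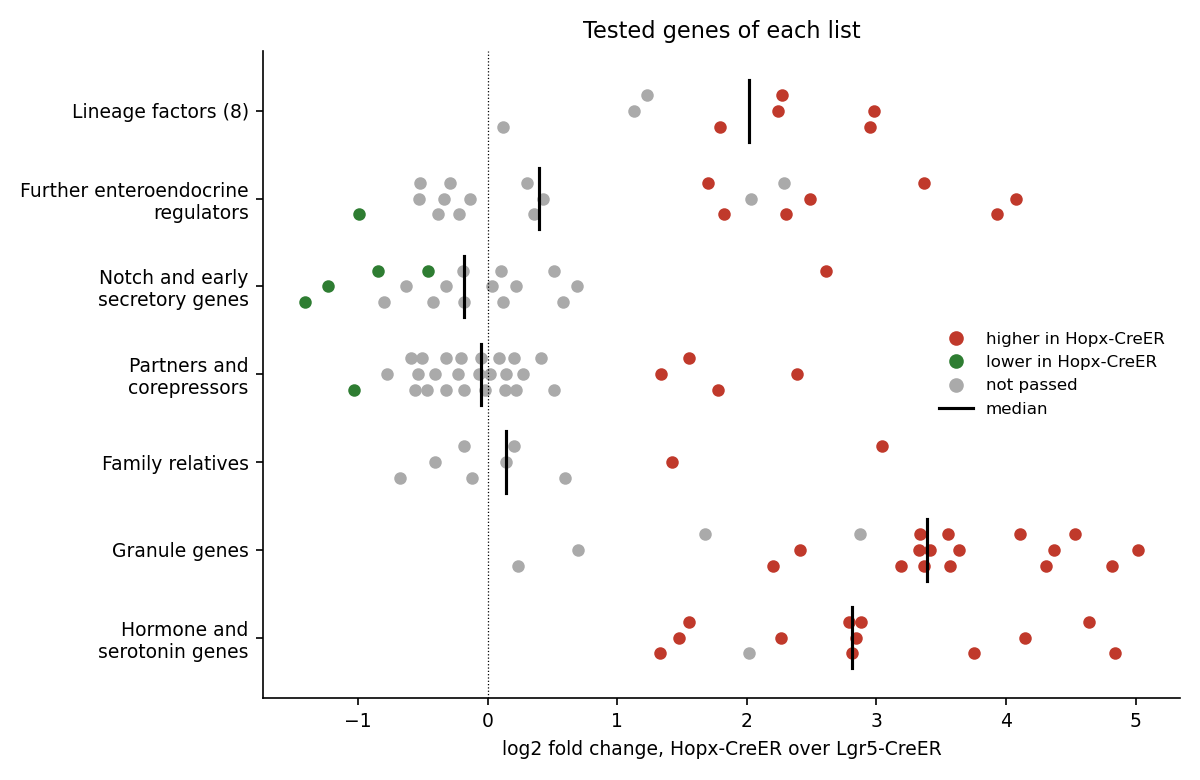
Fold change on the log2 scale (Hopx-CreER relative to Lgr5-CreER) of every tested gene in the lists described (points; red higher, green lower, grey not passed), with the median of each list as a bar. The median was 2.02 for the 8 factors, 0.39, -0.18, -0.05 and 0.14 for the next 4 lists, and 3.39 and 2.81 for granule and for hormone and serotonin genes; Rfxank and Rfxap are plotted among the family relatives.

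Tested genes of differentiated enteroendocrine cells mostly rose in the same contrast, with larger medians than the factors. Of 20 tested granule and secretion genes 16 were higher and 0 lower (median log2 fold change 3.39). Of 20 listed hormone and serotonin genes, values for 18 were used and 13 were tested, with 12 higher and 0 lower (median 2.81). The shares over all tested genes were 9.45% higher and 3.30% lower. Syt13, a synaptotagmin of secretory cells, rose by 3.34 ± 0.32 (SE, log2; edgeR adjusted p 0.000548), and Tac1, which encodes substance P, by 3.75 ± 0.32 (edgeR adjusted p 0.000424). Chga (chromogranin A) and Tph1 (serotonin synthesis) were 1750 ± 630 against 61.8 ± 11.7 CPM and 184 ± 63.8 against 10.4 ± 3.84 CPM (SD, n = 3). Summed over the 21 granule genes, the level was 2010, 4200 and 2660 CPM in Hopx-CreER libraries 1, 2 and 3 and 155, 246 and 195 CPM in those of Lgr5-CreER. Library 2 was thus the highest of its group for granule RNA as for 7 of the 8 factors.

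For each factor, the protein-coding genes outside the 8 with the nearest profile were found by the root mean square distance of log2 CPM, centred on each gene's mean, over the 6 libraries and among 11346 genes. The nearest to Neurog3 were Drc3, a cilium protein gene (0.0633), and Gfi1, a zinc-finger factor of secretory progenitors (0.0704). Gfi1 stood at 4.97, 6.43 and 6.31 CPM against 3.75, 6.56 and 5.99 CPM. Neurod1 was nearest to Pcsk1, a prohormone convertase (0.258), and Ghrl, which encodes ghrelin (0.29). Pax6 was nearest to Rgs4 (0.216) and Sv2c (0.303), and Isl1 to Ttll11 (0.227) and Rgs4 (0.237); Rgs4 limits G protein signalling and Sv2c is a secretory vesicle protein.

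Near Nkx2-2 was Gfra3, a co-receptor of the GDNF family (0.138). Rfx6 was nearest to Chat, the enzyme of acetylcholine synthesis (0.261), and to Hmgn3 (0.271). Insm1 was nearest to Golgb1, a Golgi protein (0.143), and Cd59a, a complement inhibitor (0.154), and Pax4 to Dbn1, which binds actin (0.198), and Kcnk6, a potassium channel (0.229). These distances describe 6 libraries in which the groups differ, and carry no test.

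Epithelial markers were high in every library, so RNA of the labelled epithelium was present. Summed over 10 genes they stood at 19100 to 21200 CPM in Hopx-CreER and 13500 to 14600 CPM in Lgr5-CreER libraries. Of these 10 genes, 3 were called higher and 0 lower. The libraries held 10839306 to 14570555 counts, which puts 1 count at 0.0669 to 0.0928 CPM. Markers of other differentiated epithelial cells were also mostly called higher in Hopx-CreER cells, beside 9.45% called higher and 3.30% lower over all tested genes. Among the Hopx-CreER libraries, library 2 was highest for 7 of 8 factors and for the goblet sum. It was not highest for the Paneth, enterocyte or tuft sum. The 10 Paneth genes (9 of 10 tested higher) summed to 15600, 14900 and 32300 CPM in Hopx-CreER libraries 1, 2 and 3, against 1660 to 3270 CPM in the Lgr5-CreER group. The 10 enterocyte genes (10 of 10 higher) summed to 2490, 2190 and 4710 against 944 to 1230 CPM. Both sums were thus lowest in library 2 and highest in library 3. The 10 tuft genes (7 of 9 tested higher) were highest in library 1, at 1270, 1020 and 263 against 138 to 210 CPM. The 9 goblet genes (8 of 9 higher) had their highest sum in library 2, at 7160, 10900 and 7290 against 2060 to 2760 CPM. Single genes did not all follow the order of their sum. Lyz1 stood at 3920, 4930 and 10400 CPM and Clca1 at 2360, 1360 and 1710 CPM in Hopx-CreER libraries 1, 2 and 3. Both are named after their values were seen. The 10 Lgr5 stem cell genes had a lower sum in Hopx-CreER cells (9 of 10 called lower), at 2790 to 4630 against 9680 to 10200 CPM. The part of these cells in the result was not tested. Isl1, Insm1 and Neurod1 are also neuronal genes, and Pax6 and Nkx2-2 also islet genes. Of 14 neuron and glia markers values for 7 were used, summing to 6.22 to 11.5 against 3.61 to 6.31 CPM, and 1 of these had no count in any library. Of the 2 tested genes 0 were called, at a median log2 fold change of 1.14. The islet list had values for 2 of 8 genes, summing to 3.43 to 4.14 against 0.0864 to 1 CPM. Iapp, which also belongs to the hormone list and is named after its values were seen, was the 1 tested and was higher (log2 fold change 2.81, edgeR adjusted p 0.0122). Immune, stromal and endothelial markers summed to 8.14 to 12.9 against 5.44 to 6.16 CPM over 13 of 17 genes, of which 3 had no count in any library. Of the 3 tested genes 0 were called (median log2 fold change 0.57).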

How the data were processed

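The authors deposited raw counts per versioned mouse Ensembl gene for 6 libraries, with no normalization. Per the labels, RNA from sorted cells was amplified with SMART-Seq v4 and made into Nextera XT libraries. The submitters' processing notes name kallisto and edgeR, and as build GRCh38, which is human although the identifiers are mouse; versions, counting settings and strand are not given in the sources used here. Symbols, positions and lengths came from GENCODE M21 (GRCm38), which matched 23479 of 23565 identifiers, and upstream windows from RefSeq (GRCm38.p6).

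Columns name the sorting gate but no replicate, so libraries are numbered by column order as names only. Which mouse gave which library is not stated, and Lgr5-CreER libraries 2 and 3 have the same number in their column names. The p-values thus measure the spread between these libraries. The column of Hopx-CreER library 3 carries an extra tag that the sources used here do not explain. Reads were amplified and carry no molecular identifiers.

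Groups were compared with edgeR 4.0.16 in R 4.3.3 (TMM, filterByExpr, quasi-likelihood F-test, Benjamini-Hochberg over 12439 genes, threshold 0.05). The SE was taken from the F statistic, and the procedure was tested on simulated data. Alternatives used edgeR, DESeq2 1.42.0 and limma 3.58.1 (voom). The members, lists and rules were chosen with earlier results of these data known. Named are the 8 factors, the 2 nearest profiles of each, the smallest p-values at a mean of at least 1 CPM in each list (3 genes, or 2 for granule and hormone lists), and genes that the text marks as chosen by their values. A few genes that these rules reach are not reported here.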

Additional observations from a re-analysis of the deposited data

How the results depend on the processing

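Results were recomputed under 11 other settings and without each of the 6 libraries; the setting that summed the shared-number columns and left out Hopx-CreER library 3 was chosen after seeing the data. The number of factors called higher was 5, and became 3 with library totals alone, 1 at a threshold of 0.01, 2 with the shared-number columns summed, and 1 to 6 with a library left out; it was 4 to 6 under the other 8 settings, DESeq2 and limma-voom among them. No factor was called lower under any of them. Isl1 kept its call in all 17. The log2 fold change of Neurog3 turned to -0.01 with library totals, which shift the median of all genes by -0.114, and to -0.16 with GC offsets, and ran from -0.09 to 0.30 with a library left out (-0.02 without Hopx-CreER library 3, -0.09 without Lgr5-CreER library 1). Calls were lost with library totals for Neurod1 (2.13) and Rfx6 (2.15), with limma-voom for Rfx6 (2.13), with the summed columns for Neurod1 (2.39), Nkx2-2 (1.92) and Rfx6 (2.36), and at 0.01 for Neurod1 (2.24), Pax6 (2.98), Nkx2-2 (1.79) and Rfx6 (2.27). Insm1 gained a call with DESeq2 (1.22), no filter (1.22) and the added setting (1.44). With a library left out, log2 fold changes ran from 1.52 to 2.76 (Neurod1), 2.38 to 3.70 (Pax6), 0.79 to 1.43 (Insm1), 1.41 to 2.02 (Nkx2-2), 2.20 to 3.27 (Isl1), 1.58 to 2.77 (Rfx6) and 0.61 to 1.47 (Pax4). Leaving out a library also costs residual degrees of freedom; the cause of each lost call was not tested.

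Further regulators called higher numbered 7, and 4 with library totals, 2 at 0.01, 4 with summed columns and 3 to 6 with a library left out. Notch and secretory genes called numbered 5, and 2 at 0.01, 3 with summed columns and 3 to 6 with a library left out. Partners called numbered 5, and 3 at 0.01, 3 with summed columns and 3 to 5 with a library left out. Relatives called numbered 2, and 1 with RLE, totals, upper quartile, limma-voom, 0.01, summed columns or the added setting, and 1 to 2 with a library left out. Granule calls stayed within 15 to 18 and hormone and serotonin calls within 9 to 14. The Neurog3 to Neurod1 difference was -1.92 and -1.28 with pseudocounts of 0.1 and 1, and -1.86 to -1.13 with a library left out. Over all genes, 1586 calls became 654 at 0.01, 790 with the summed columns and 723 to 1868 with a library left out. Gfi1 turned to -0.15 with GC offsets and ran from -0.09 to 0.27 with a library left out, and Drc3 from -0.06 to 0.36. No paired analysis was possible because the columns of the count table carry no replicate numbers. Depth limits Lgr5-CreER values of Pax6, Neurod1, Isl1, Rfx6 and Lhx1, which rest on 3 to 23 counts per library, and of Peg3, which rests on 0 to 2.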
